A study of Mus musculus with 28 samples.

Results

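Mag, Cnp, Gjb1, Gjc3, Cldn19, Cdh1, Tjp1 and Ncmap encode proteins of the non-compact parts of the myelin sheath and of the junctions that hold its layers together. These 8 genes, of 41605 in the count table, were chosen by name for the place of their products in the Schwann cell. All 8 passed the filter on low counts, which left 17700 genes. RNA was sequenced from peripheral nerve of wild-type C57BL/6J mice that were not perfused, at embryonic day (E) 13 and 17 and postnatal day (P) 1, 5, 14, 24 and 60. Each of these 7 stages has 4 libraries, 28 in all. The study counts the embryonic stages as E13.5 and E17.5 and took 2 male and 2 female samples at each stage, although the libraries do not carry a sex. An E13 library held various nerves distal to the dorsal root ganglia pooled from 2 embryos, while the label reads sciatic nerve. An E17 library held the sciatic nerves of 2 embryos, and a postnatal library those of 1 mouse. Epineurium and perineurium, the outer sheaths of the nerve, were stripped as far as possible from E17 on and not at E13. Age, tissue and dissection therefore cannot be told apart in any comparison with E13. All cells of the dissected nerve were measured together, so fewer cells of a type and less RNA per cell cannot be told apart.

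A myelinating Schwann cell wraps 1 length of axon and squeezes most of its layers into compact myelin, but cytoplasm is kept in the innermost and outermost collars, in the paranodal loops beside the node and in the Schmidt-Lanterman incisures, spiral channels that cross the sheath. Tight, adherens and gap junctions between the layers of the same cell, called autotypic or reflexive junctions, seal these channels and let small molecules pass straight across the sheath. Mutations of GJB1, which encodes the gap junction protein Cx32, cause the X-linked form of Charcot-Marie-Tooth neuropathy, and loss of claudin-19 removes the tight junctions of peripheral myelin in mice.

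Sequences just before the transcription start are shown for the 2 connexin genes among the members, whose log2 fold changes from P1 to P60 differed more than those of any other pair of members, and for Ncmap, whose levels followed those of Gjb1 most closely of all genes compared. They run 5′ to 3′ in the direction of the gene from 250 bases before a start site, and come from RefSeq (GRCm38.p6). Gjb1 has 4 start sites in that table, and the window at chrX:101383482-101383781 (plus strand) is shown because it held a match to ACAAAG, the core that SOX factors bind, and to GTGGGCG, the core that EGR factors bind. Capitals mark the matches. The windows of Ncmap (chr4:135398178-135398477, minus strand) and Gjc3 (chr5:137963049-137963348, minus strand) held neither.
Gjb1: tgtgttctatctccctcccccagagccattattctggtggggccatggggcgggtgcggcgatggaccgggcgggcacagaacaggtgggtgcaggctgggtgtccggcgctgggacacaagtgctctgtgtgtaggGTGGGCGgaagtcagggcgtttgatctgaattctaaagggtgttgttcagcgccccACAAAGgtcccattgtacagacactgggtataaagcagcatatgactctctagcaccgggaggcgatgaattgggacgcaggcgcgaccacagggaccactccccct
Ncmap: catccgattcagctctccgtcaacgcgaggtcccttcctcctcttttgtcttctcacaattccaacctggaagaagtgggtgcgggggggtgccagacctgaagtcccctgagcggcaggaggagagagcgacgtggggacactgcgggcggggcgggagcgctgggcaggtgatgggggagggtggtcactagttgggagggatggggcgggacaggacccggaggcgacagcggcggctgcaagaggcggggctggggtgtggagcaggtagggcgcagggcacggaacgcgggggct
Gjc3: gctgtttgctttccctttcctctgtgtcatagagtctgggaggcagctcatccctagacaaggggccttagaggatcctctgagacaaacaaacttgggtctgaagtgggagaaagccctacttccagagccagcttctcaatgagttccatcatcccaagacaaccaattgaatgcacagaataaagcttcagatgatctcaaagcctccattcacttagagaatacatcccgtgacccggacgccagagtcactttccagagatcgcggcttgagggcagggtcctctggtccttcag
The ACAAAG match of Gjb1 lay 57 bases before the start site and the GTGGGCG match 113 bases before it. Both strands were searched, also for GGAATG, the core that TEAD factors bind. Of 32851 promoter windows of the same length, 18.7% held ACAAAG, 7.97% GTGGGCG and 14.7% GGAATG. The table held 14 windows of 7 members and none of Cdh1. Of the other 3 windows of Gjb1 1 held ACAAAG and 1 GGAATG. Of 3 windows of Mag 2 overlap and share the same ACAAAG match, and the third held GGAATG. The window of Cnp held both motifs, the overlapping windows of Cldn19 share the same GTGGGCG match, and Tjp1 and the other window of Ncmap held none of the 3. A match describes these letters and not a bound site.

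Levels are given as CPM (counts per 1000000 of the TMM-scaled library total) and summarised by mean ± SD (n = 4 libraries), and changes as log2 fold changes ± SE. A gene was called where its Benjamini-Hochberg adjusted p in edgeR's quasi-likelihood test, over all 17700 genes, was under 0.05 and its change at least 2-fold. Total counts ran from 13899895 to 37662780. Within their stage, 3 libraries stood apart in how their values followed the GC content of transcripts (E13 replicates 1 and 4 and P1 replicate 1), and leaving them out left the number of members called as it was in all 8 comparisons made. The summed level of 5 Schwann cell markers (Sox10, S100b, Erbb3, Egr2 and Prx) was 203.3 to 535.3 CPM at E13, 1708 to 1927 at E17 and 10410 to 12400 at P14. Most of the P14 sum was Prx, with a mean of 28.43 CPM at E13 and 9688 at P14. Sox10 had means of 117.5 CPM at E13 and 468.5 at P14, and Erbb3 of 221.1 and 553. None of the 5 was at 0 at any stage. Oligodendrocytes also make Mag, Cnp and Gjb1. The summed level of 7 oligodendrocyte markers stayed under 69 CPM in all libraries, most of it Cldn11 at E13 and Mobp at P14, and Mog was at 0 in all libraries of E17, P1, P5 and P60.

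The stage with the highest mean differed among the 8 transcripts (plot of all libraries by stage): it was P5 for Gjc3, Mag and Cldn19, P14 for Cnp and Ncmap, P24 for Gjb1 and Cdh1, and P60 for Tjp1. For each of the 8 this stage was not told apart from the next lower in the order (edgeR adjusted p 0.158 to 0.989). The highest stage mean was 1859 times the lowest for Ncmap, 793.8 times for Cldn19, 699.9 times for Gjb1 and 221.4 times for Gjc3. The same quotient was 82.11 for Cdh1, 36.11 for Mag, 28.23 for Cnp and 5.119 for Tjp1. At P60 the level relative to the highest stage ranged from 16.54% for Gjc3 and 38.7% for Mag, through 56.16% for Cnp, 62.99% for Cldn19 and 76.83% for Ncmap, to 88.03% for Cdh1, 94.93% for Gjb1 and 100% for Tjp1.

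**Figure D1:**
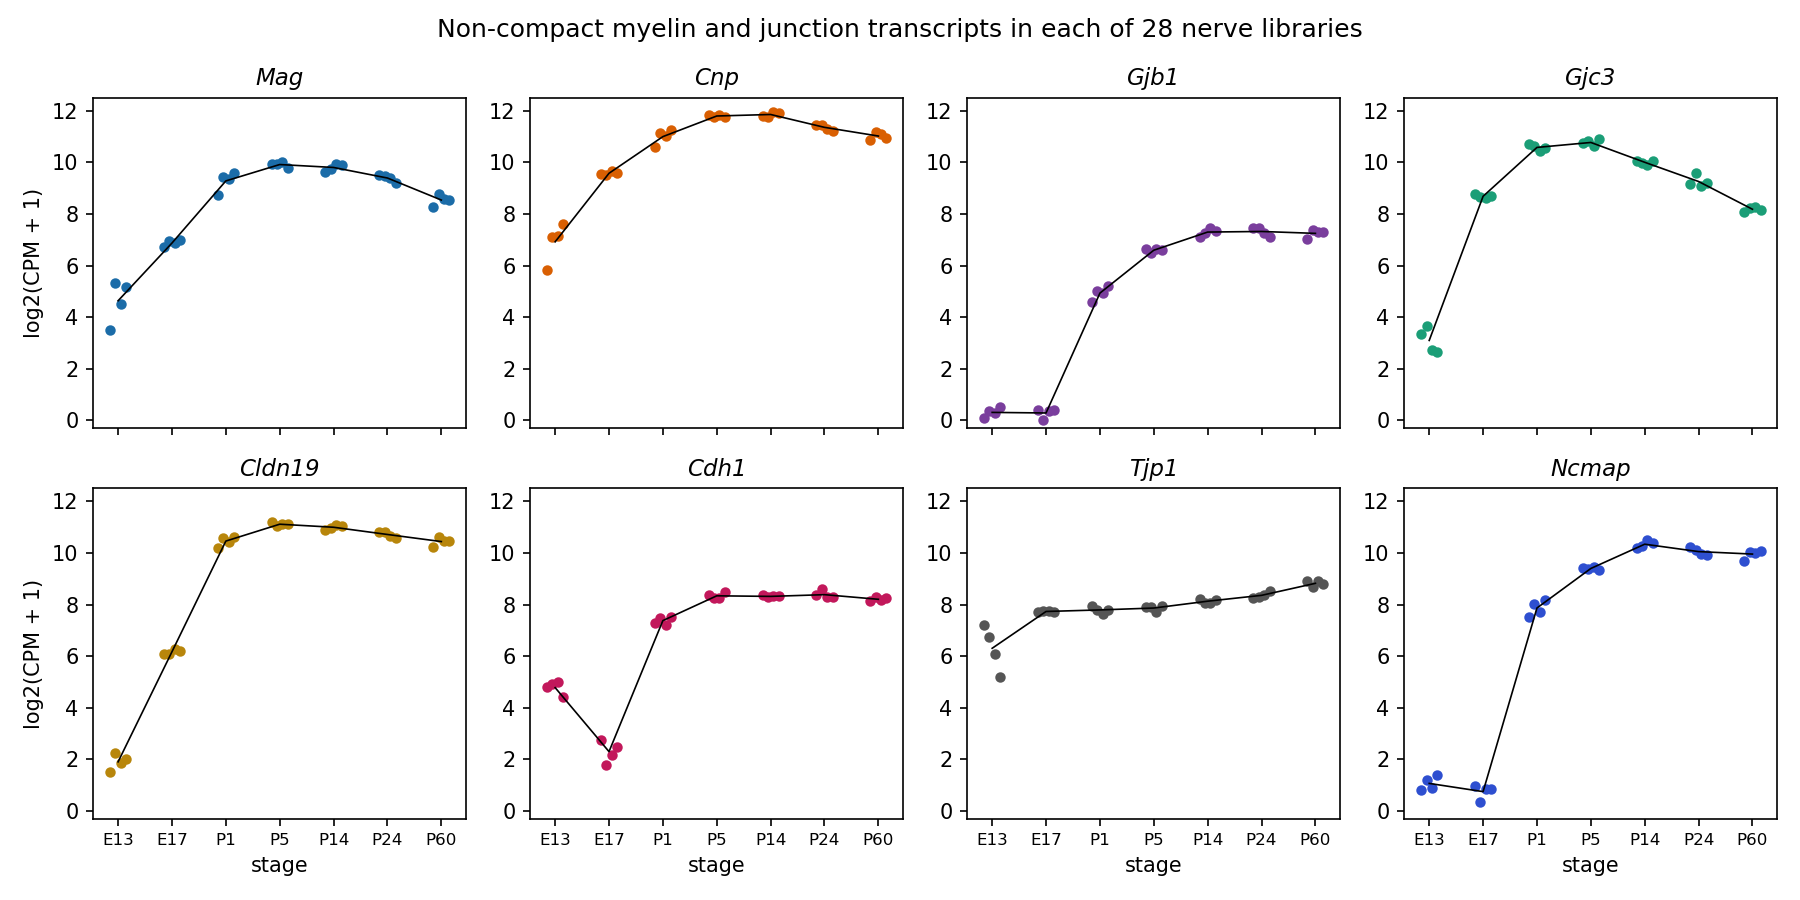
Level of each of the 8 transcripts in each of 28 libraries, as log2(CPM + 1) on the y axis against stage on the x axis, with a point per library and a line through the stage means. Gjb1 and Ncmap lie near the bottom at E13 and E17 and jump at P1, Cdh1 dips at E17, Gjc3 declines after P5, and Tjp1 has the flattest course apart from its wide spread at E13.

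Mag encodes myelin-associated glycoprotein, a sialic acid-binding adhesion protein of the membrane that faces the axon, of the paranodal loops and of the incisures (ENSMUSG00000036634, chromosome 7, 30899176 to 30914873, minus strand). Its 4 libraries stood at 10.3, 39.61, 21.99 and 35.52 CPM at E13, at 103.7, 121.6, 116 and 125.7 at E17, and at 422.7, 694.6, 658.5 and 778.3 at P1. The 3 stages did not overlap, and P1 replicate 1 was well under the other P1 libraries. Mag rose by 2.12 ± 0.25 from E13 to E17 (edgeR adjusted p 3.1e-08) and by 2.45 ± 0.25 from E17 to P1 (adjusted p 1.19e-08). It reached 969.8 ± 66.3 CPM at P5 and was at 897.6 ± 83.4 at P14 and 675.7 ± 61.5 at P24. The P60 libraries stood at 308.2, 442, 379.1 and 371.8 CPM, all under every P14 library (801 to 984 CPM). Mag fell by 1.26 ± 0.24 on the log2 scale from P14 to P60 (edgeR adjusted p 0.000172). In the order of its stage means the neighbours P1 and P24, P24 and P14, and P14 and P5 were not told apart.

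Cnp encodes CNPase, a cyclic-nucleotide phosphodiesterase that binds the cytoskeleton and keeps the channels of myelin open (ENSMUSG00000006782, chromosome 11, 100574904 to 100591729, plus strand). At E13 its libraries stood at 56.17, 136.4, 139.2 and 196 CPM, and at E17 at 751.7, 736.2, 809 and 765.3. The E13 libraries spread more than 3-fold and yet lay far under those of E17. Cnp rose by 2.54 ± 0.21 from E13 to E17 (edgeR adjusted p 7.94e-11) and by 1.44 ± 0.21 to P1 (adjusted p 4.4e-06), when it was at 2078 ± 371 CPM. It was highest at P14 (3725 ± 260 CPM), next to 3572 ± 143 CPM at P5, and stood at 2638 ± 209 CPM in the P24 nerves and 2092 ± 221 CPM in those of P60. Its levels at P60 and P1 overlapped and differed by 0.01 (adjusted p 0.977). A stretch of 154 exonic bases (4.232% of the gene) is shared with Dnajc7, which runs on the other strand. Dnajc7 had 124375 counts in all libraries together and Cnp 1354264.

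Both connexins, the subunits of gap junction channels, were low at E13 and took different courses. At E17 the mean level of Gjc3 was 411.9 CPM and that of Gjb1 0.2289 CPM. Gjb1 encodes Cx32, the channel of paranodal loops and incisures (ENSMUSG00000047797, chromosome X, 101376378 to 101385629, plus strand). It had 2, 7, 6 and 8 counts in the E13 libraries and 6, 0, 7 and 5 in those of E17, all under 0.5 CPM. At P1 its libraries stood at 22.93, 31.52, 29.75 and 35.62 CPM, at P5 at 98.96, 89.12, 99.61 and 96.27, and at P14 at 139, 152, 176.9 and 161.9. Each of these stages lay above the one before without overlap. Gjb1 rose by 7 ± 0.29 from E17 to P1 (edgeR adjusted p 9.54e-17) and by 1.68 ± 0.18 from P1 to P5 (adjusted p 9.45e-08). It was another 0.71 ± 0.17 higher at P14 than at P5 (adjusted p 0.00251), short of 2-fold. From there its means were 157.4 ± 16 CPM at P14, 160.2 ± 18.4 at P24 and 152.1 ± 16.4 at P60, and these 3 stages were not told apart.

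Gjc3 encodes Cx29, a connexin of the innermost Schwann cell membrane, the paranodes and the incisures (ENSMUSG00000056966, chromosome 5, 137953461 to 137963098, minus strand). Its libraries stood at 9.207, 11.51, 5.705 and 5.315 CPM at E13 and at 434.9, 404.1, 397.2 and 411.4 at E17, a rise of 5.69 ± 0.19 (edgeR adjusted p 9.3e-19), the largest of the 8 at that step. At P1 they stood at 1671, 1608, 1376 and 1496 CPM, a further rise of 1.90 ± 0.16 (adjusted p 3.34e-10). Gjc3 was thus abundant at E17, when Gjb1 was near 0. Its mean was highest at P5 (1757 ± 137 CPM) and lower at each stage after it, with 1030 ± 59.9 CPM at P14, 618.7 ± 99.0 CPM (P24) and 290.7 ± 15.6 CPM (P60). The steps from P5 to P14 (-0.77 ± 0.16, adjusted p 0.000355) and from P14 to P24 (-0.74 ± 0.16, adjusted p 0.00325) passed the p threshold and not 2-fold. At P60 the libraries stood at 273.1, 298.6, 308 and 283 CPM, under all those of P24 (549.6 to 765.4) and of E17. Gjc3 fell by 1.09 ± 0.16 from P24 to P60 (edgeR adjusted p 1.07e-05) and by 2.6 ± 0.16 from P5 to P60 (adjusted p 3.26e-13). Without P24 replicate 2, the highest library of that stage, the step from P24 to P60 was -0.97 (adjusted p 8.95e-05), short of 2-fold, and it was also -0.97 with scaling by library size alone (adjusted p 7.58e-05). That library also stood apart in markers of other cells, with summed levels of 7114 CPM for fibroblast markers (12950 to 14800 in the other 3 at P24), 525.1 for perineurial markers (804.1 to 825.6) and 1.36 for adipocyte markers (39.77 to 77.2), and their part in its Gjc3 level was not tested. In the order of its 7 stage means P1 and P5 were the neighbours not told apart.

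The log2 ratio of Gjb1 to Gjc3 within a library does not depend on the scaling of the libraries. It went from -5.69 ± 0.35 at P1 to -2.71 ± 0.22 at P14 and -0.94 ± 0.11 at P60, changes of 2.98 and 1.77 without overlap between libraries. The two-sided exact permutation test gave p = 0.0286 for each, which 4 against 4 libraries cannot go below, and 0.0298 after adjustment over 24 ratio tests. Per kilobase of exon, Gjb1 amounted to 0.0502 ± 0.011 of Gjc3 at P1 and to 1.33 ± 0.10 of it at P60. The libraries at P60 ran from 1.20 to 1.42 and those at P24 from 0.583 to 0.784, so that the larger connexin transcript was Gjc3 in every P24 library and Gjb1 in every P60 library.

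**Figure D2:**
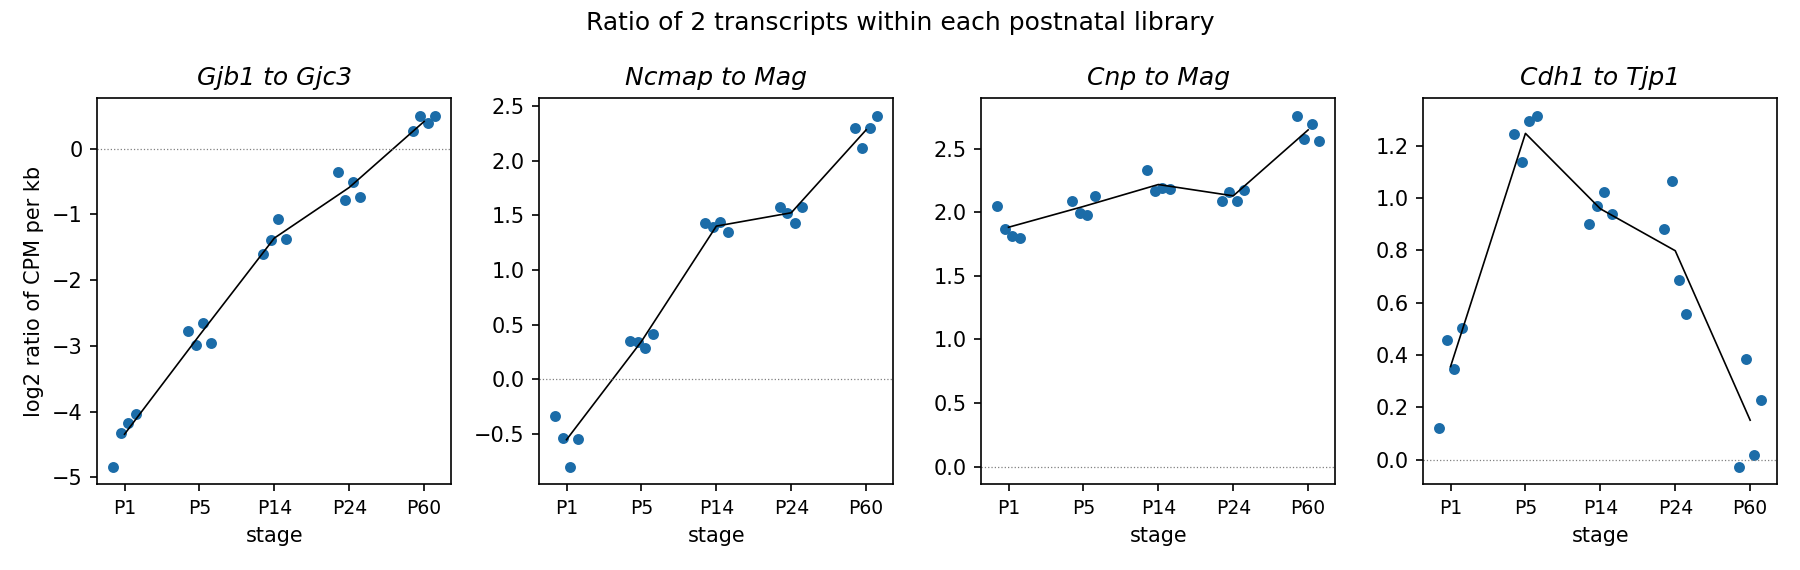
Log2 ratio of CPM per kilobase between 2 transcripts of the same library on the y axis, by postnatal stage on the x axis, with a point per library, a line through the stage means and a dotted line at equal levels. Gjb1 to Gjc3 climbs at every stage and passes equality between P24 and P60, Ncmap to Mag climbs from below equality at P1, and Cdh1 to Tjp1 peaks at P5 and returns to near equality at P60.

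The tight and adherens junction genes fell into 3 patterns. Cldn19 encodes the claudin that forms the tight junction strands of peripheral myelin (ENSMUSG00000066058, chromosome 4, 119255414 to 119262438, plus strand). Its libraries stood at 1.855, 3.675, 2.636 and 3 CPM at E13, at 67.07, 67.34, 76.43 and 73.2 at E17 and at 1170, 1522, 1382 and 1590 at P1. These stages were widely separated. Cldn19 rose by 4.68 ± 0.16 from E13 to E17 (edgeR adjusted p 9.59e-19) and by 4.32 ± 0.15 to P1 (adjusted p 1.97e-18). It was highest at P5 (2216 ± 97.0 CPM) and stood at 2043 ± 125 at P14, with later means of 1684 ± 132 CPM (P24) and 1396 ± 160 CPM (P60). The P60 level overlapped that of P1 and differed from it by -0.02 (adjusted p 0.907), and DESeq2's scaling turned the sign. Cldn19 shares 90 exonic bases (2.111%) with the antisense gene Gm12927, which had a total count of 467 against 799680.

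Cdh1 encodes E-cadherin, the adhesion molecule of autotypic adherens junctions in Schwann cells (ENSMUSG00000000303, chromosome 8, 106603351 to 106670246, plus strand). It was the only member called lower from E13 to E17. Its libraries stood at 26.73, 29.08, 30.73 and 20.37 CPM at E13, at 5.773, 2.429, 3.53 and 4.524 at E17 and at 155.6, 179, 147.4 and 181 at P1. No library of 1 stage reached those of another. Cdh1 fell by 2.73 ± 0.17 on the log2 scale from E13 to E17 (edgeR adjusted p 1.44e-13) and rose by 5.36 ± 0.18 from E17 to P1 (adjusted p 1.7e-18). Epithelial cells make E-cadherin too. The summed level of 9 epidermal markers was 10 to 12.49 CPM at E13, 4.888 to 7.54 at E17 and 3.973 to 6.308 at P1. Most of the E17 sum was Krt10, with a mean of 3.259 CPM at E13 and 4.061 at E17. Of 7 epidermal markers tested 4 were called lower from E13 to E17, beside 21.2% of all genes, and none higher. The part of epithelial cells in the level of Cdh1 at E13 was not tested. From P5 on Cdh1 stayed between 293.8 ± 15.0 CPM (P60) and 333.7 ± 33.6 CPM (P24), and no neighbours among these 4 stages were told apart. The step from P1 to P5 was 0.96 ± 0.15 (adjusted p 2.49e-05), just under 2-fold, and it reached 2-fold without P1 replicate 2 (1.00) or without P1 replicate 4 (1.01).

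Tjp1 encodes ZO-1, the scaffold that ties claudins, connexins and cadherin complexes to actin in many cell types (ENSMUSG00000030516, chromosome 7, 65296165 to 65527781, minus strand). Its E13 libraries stood at 146, 104.6, 67.31 and 35.63 CPM, a 4-fold spread, and its E17 libraries at 209.2, 216.4, 211.2 and 208.4. The E13 libraries that stood apart in GC content, replicates 1 and 4, were the highest and the lowest for Tjp1. It rose by 1.26 ± 0.22 (edgeR adjusted p 1.96e-05), and that change was 0.99, under 2-fold, without E13 replicate 4 or with scaling by library size alone. Tjp1 was the 1 member not called from E17 to P1 (0.06 ± 0.22, adjusted p 0.867), with 220.9 ± 19.0 CPM at P1. At P60 its libraries stood at 483.4, 405.3, 479.4 and 441.5 CPM, above every P1 library (198.3 to 244.6). The rise from P1 to P60 was 1.03 ± 0.22 (adjusted p 0.000197), close enough to 2-fold that it was 0.84 with library size alone, 0.96 with no filter on low counts and 1.00, just under the minimum, without P1 replicate 3 or P60 replicate 1. Endothelial and perineurial cells also hold tight junctions. The summed level of 8 endothelial markers was 203.2 to 233.9 CPM at P1 and 500.1 to 566.5 at P60. That of 5 perineurial markers was 150.5 to 228.2 CPM at P1 and 999.8 to 1414 at P60. Most of the perineurial sum was Itgb4, with means of 112.8 CPM at P1 and 813.7 at P60. The part of these cells in the rise of Tjp1 was not tested.

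The log2 ratio of Cdh1 to Tjp1 changed by 0.60 from P1 to P14 and by -0.81 from P14 to P60, each without overlap between libraries (two-sided exact permutation p 0.0286, adjusted 0.0298).

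Ncmap encodes non-compact myelin associated protein, a small membrane protein of peripheral myelin (ENSMUSG00000043924, chromosome 4, 135369576 to 135398227, minus strand). Its libraries had 22, 32, 23 and 31 counts at E13 and 17, 5, 20 and 13 at E17, or 0.264 to 1.63 CPM. At P1 they stood at 183.5, 261.9, 206.9 and 291.6 CPM, at P5 at 679.9, 670.7, 696.1 and 647 and at P14 at 1183, 1232, 1456 and 1319. As for Gjb1, each stage from P1 to P14 lay wholly above the one before. Its E17 level was 0.64 ± 0.28 below that of E13 on the log2 scale (edgeR adjusted p 0.0481), with overlap and short of 2-fold. Without E17 replicate 2, its lowest library, the change was -0.38 and did not pass (edgeR adjusted p 0.203). After the rise to P1 of 8.39 ± 0.26 (adjusted p 1.73e-19), Ncmap rose by 1.51 ± 0.18 from P1 to P5 (edgeR adjusted p 3.43e-07) and was 0.95 ± 0.17 higher at P14 than at P5 (adjusted p 0.000113), just short of 2-fold. At P60 it stood at 830.8, 1050, 1022 and 1085 CPM, below all P14 libraries, a change of -0.38 that did not pass the test (adjusted p 0.0975). Its log2 ratio to Mag went from -1.42 ± 0.19 at P1 to 0.53 ± 0.04 at P14 and 1.41 ± 0.12 at P60 (two-sided exact permutation p 0.0286 for both steps, adjusted 0.0298). Per kilobase Ncmap was at 0.686 ± 0.090 of Mag at P1, 2.64 ± 0.076 at P14 and 4.88 ± 0.41 at P60.

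**Figure D3:**
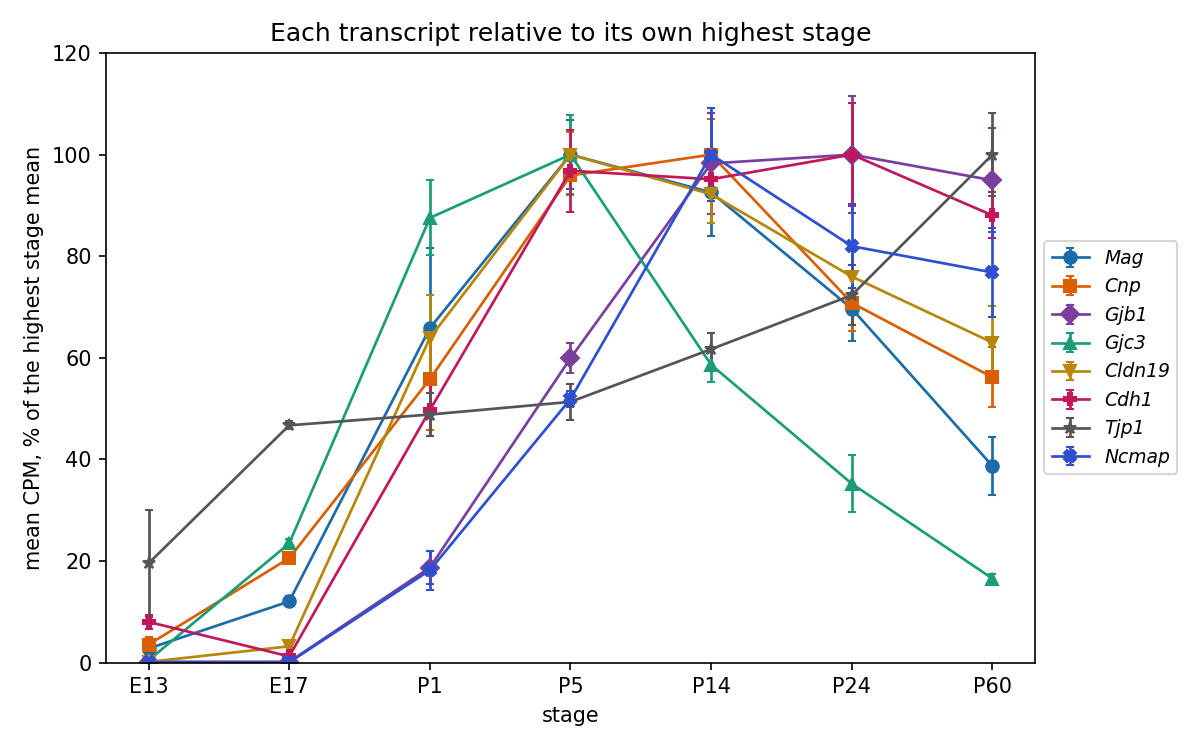
Mean CPM of each transcript as a percentage of its own highest stage mean (y axis) by stage (x axis), with bars of 1 SD over 4 libraries. Gjc3 reaches 100% at P5 and ends at 16.54% at P60, Gjb1 and Ncmap are lower than the other 6 at P1 and end at 94.93% and 76.83%, and Tjp1 climbs to its highest value at P60.

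Set side by side, most member calls between adjacent stages fell on the steps from E13 to E17 and from E17 to P1. The first of these steps also differed in tissue and dissection. Between E13 and E17 6 of 8 members passed (5 higher, 1 lower), beside 35.5% of all genes (14.2% higher, 21.2% lower), and the members' median log2 change was 1.69 beside -0.08 for all genes. From E17 to P1 7 of 8 were called, all higher, beside 11.7% of all genes called and 6.31% called higher, with a median of 3.38 beside 0.00. All 5 Schwann cell markers were called higher from E13 to E17, beside 14.2% of all genes. From E17 to P1 3 of the 5 were called, all higher, beside 6.31%. The part of Schwann cell number in the members' changes was not tested. From P1 to P5 2 of 8 were called, both higher (Gjb1 and Ncmap), beside 5.84% called in either direction and 4.05% higher. From P5 to P14 none of the 8 was called by edgeR, beside 12% of all genes, although 3 passed the adjusted p alone, beside 29.6%. From P14 to P24 none was called, beside 2.65%, with 1 past the adjusted p alone, beside 5.45%. DESeq2's Wald test and limma-voom called none at these 2 steps either. From P24 to P60 1 was called, Gjc3, which was lower, beside 5.96% in either direction and 3.41% lower. Over the longer span from P1 to P60 4 of 8 were called, beside 35.5% (20.3% higher, 15.2% lower). Gjb1 (2.34 ± 0.18, adjusted p 1.42e-11), Ncmap (2.08 ± 0.18, adjusted p 8.63e-11) and Tjp1 were higher and Gjc3 was lower (-2.40 ± 0.16, adjusted p 7.16e-13). From P14 to P60 2 of 8 were called, Mag and Gjc3, both lower, beside 12.9% in either direction and 5.81% lower. Comparisons that share a stage share its libraries.

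**Figure D4:**
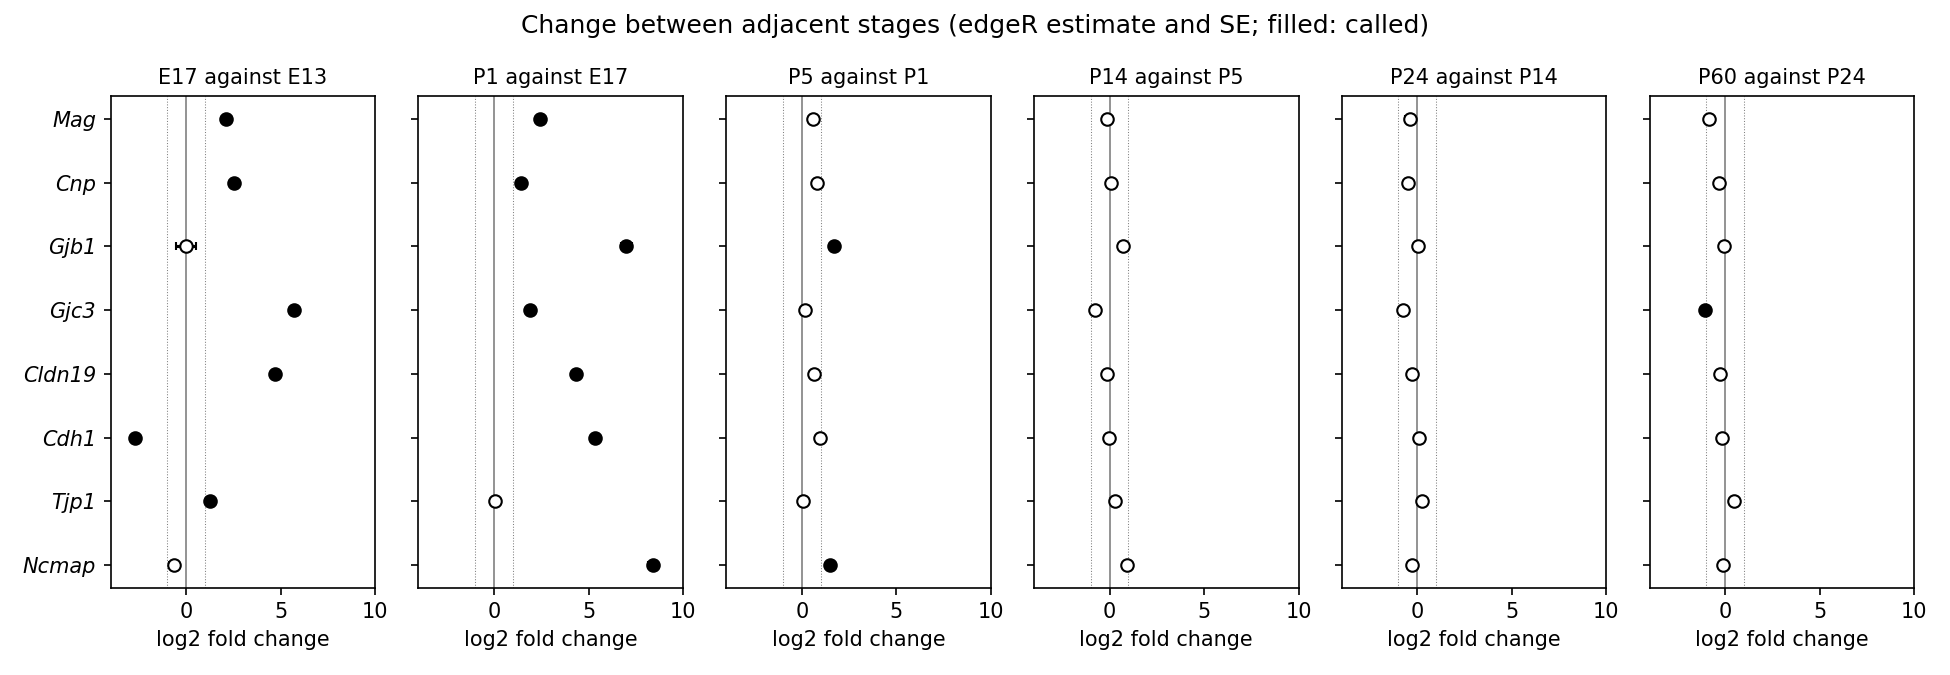
Log2 fold change of each member (x axis) between adjacent stages, later against earlier, as the edgeR estimate with its SE, where bars shorter than the marker are hidden and dotted lines mark 2-fold. Filled points are called: 6 at E17 against E13, 7 at P1 against E17, 2 at P5 against P1, none at the next 2 steps and Gjc3 at P60 against P24.

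Levels of different genes were compared per kilobase of exon. Summed over the 8 members, E13 had 63.1 CPM per kb and E17 378.7. The sum was 1601 CPM per kb at P1, 2602 at P5 and 2740 at P14, its highest, and then 2114 at P24 and 1720 at P60. Cnp held the largest share at every stage, from 57.4% at E13 to 33.4% at P60. The share of Gjc3 was 25% at E17 and 3.88% at P60, and that of Ncmap was 0.0828% at E17, 6.62% at P1 and 26% at P60. Cldn19 held 20.7% at P1 and 19% at P60, while Gjb1 never held more than 5.18%.

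**Figure D5:**
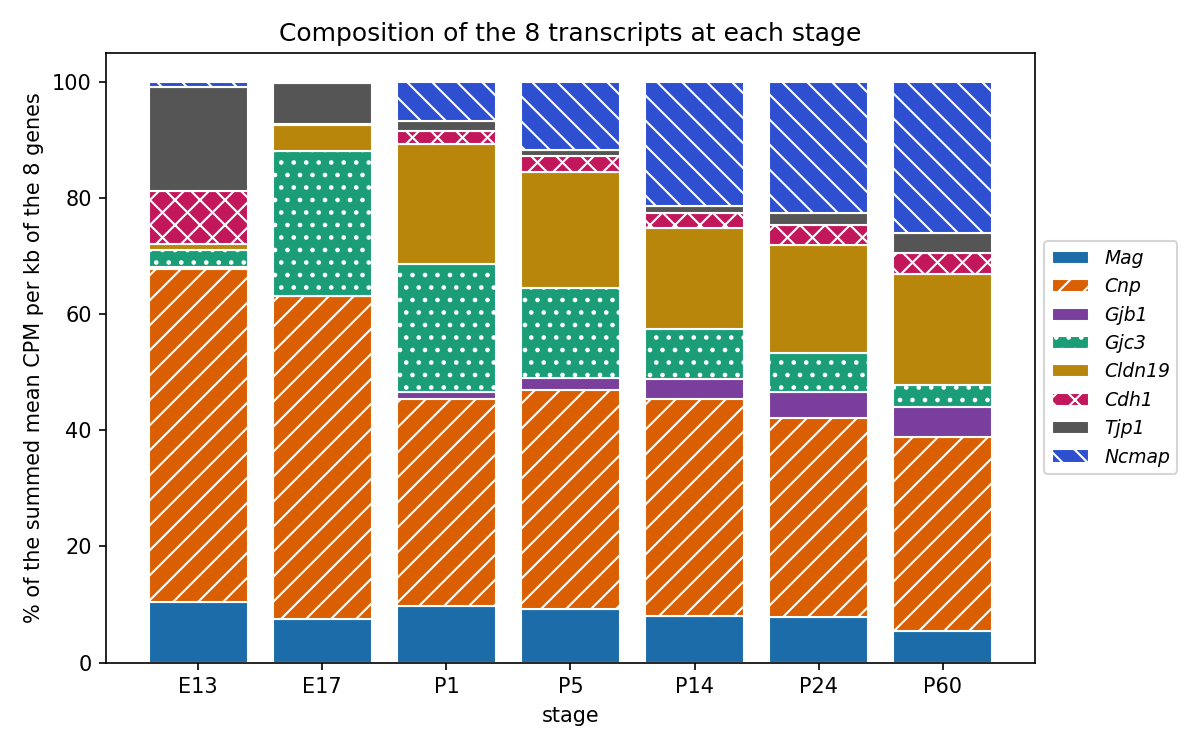
Share of each transcript in the summed mean CPM per kilobase of the 8 members (y axis, %) at each stage (x axis). Cnp is the largest band at every stage, the band of Gjc3 shrinks from E17 to P60 and that of Ncmap widens from P1 to P60.

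The members were also set against Mbp, 1 gene of compact myelin, which encodes myelin basic protein, the cytoplasmic glue of compact myelin. Mbp itself went from 7756 CPM at P1 to 51460 at P14 and 28320 at P60. From P1 to P14 the log2 ratio to Mbp went down for all 8 members without overlap between libraries, by values from -0.32 for Ncmap and -0.39 for Gjb1 to -2.45 for Tjp1 and -3.37 for Gjc3. From P14 to P60 the ratio went up for Tjp1 (1.56), Gjb1 (0.81), Cdh1 (0.75), Ncmap (0.48) and Cldn19 (0.31) and down for Gjc3 (-0.96) and Mag (-0.40). These 15 differences each had a two-sided exact permutation p of 0.0286 (0.0298 adjusted over 24). A ratio to Mbp does not stand for compact myelin as a whole: between P14 and P60 the mean level of Pmp22 went from 51920 to 36010 CPM and that of Pmp2 from 2103 to 434.1 CPM, and ratios to these 2 compact myelin genes, which need not have the same direction, were not tested. The ratio of Cnp to Mbp differed by 0.03 between P14 and P60 (exact permutation p 0.771). The quotient of Cnp to Mag, which does not involve Mbp, was higher at P14 than at P1 by 0.34 and at P60 than at P14 by 0.43 on the log2 scale (exact permutation p 0.0286 each, adjusted 0.0298).

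The likeness of patterns was measured as Pearson's r of log2 CPM over the 28 libraries, which share 7 stages, and is given as a description. Among the members r was highest for Gjb1 and Ncmap (0.997) and for Mag and Cnp (0.985). It was lowest for Gjc3 and Cdh1 (0.459), Cdh1 and Tjp1 (0.51), and the connexins Gjb1 and Gjc3 (0.648). Among the genes compared, which had a highest stage mean of at least 10 CPM, those most like Mag were Papss1 (0.989) and Tmem134 (0.986), followed by Cnp. Those most like Cnp were Dag1 (0.990), which encodes the laminin receptor dystroglycan, and Metrnl (0.986), followed by Mag. After Ncmap, those most like Gjb1 were Cdkn1a (0.994) and Ddn (0.992), and after Gjb1 those most like Ncmap were Dusp15 and Ddn (both 0.996). Itih5 and Depdc7 (both 0.994) and Serinc5 (0.990) were nearest to Gjc3, and Efhd1 (0.992), Bcas1 and Filip1 (both 0.990) to Cldn19. For Cdh1 they were Ttc9 (0.988), Rasgef1a (0.979) and Sphkap (0.977), and for Tjp1 Sec63 (0.988), Lrp6 and Nbeal1 (both 0.984). Without the E13 libraries the nearest gene to Gjb1 and Ncmap was again the other of that pair (0.997 over 24 libraries), and Dag1 was again nearest to Cnp (0.986). The nearest gene was then another for the remaining 5, namely Ncmap for Cdh1 (0.994), Ston1 for Cldn19 (0.993), Sema6d for Gjc3 (0.990), Emid1 for Mag (0.987) and Parp4 for Tjp1 (0.979).

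Of 11 adherens junction genes (cadherins, catenins, nectins and their anchors), 3 were called higher and 2 lower from E13 to E17, beside 14.2% and 21.2% of all genes. From E17 to P1, when Cdh1 rose, 1 of the 11 was called, beside 11.7% of all genes, and it was lower. This was Cdh2, N-cadherin, which went from 152.2 ± 6.35 to 51.9 ± 5.59 CPM (-1.55 ± 0.13, edgeR adjusted p 3.68e-10) and to 25.8 ± 2.25 CPM at P5, its lowest stage. At P60 Cdh2 was back at 112.5 ± 8.54 CPM, 1.11 ± 0.13 above P1 (adjusted p 2.8e-08). The catenins that bind cadherin tails were not called at that step, with Ctnnb1 (beta-catenin) at 795.6 ± 36.6 CPM at E17 and 852.9 ± 15.1 at P1 and Ctnna1 (alpha-catenin) at 645.9 ± 8.91 and 637.2 ± 31.4. Ctnnd1 (p120-catenin) was called in none of the 8 comparisons and stood at 214.5 ± 11.6 CPM at E13 and 438.5 ± 14.8 at P60. Cdh19, a cadherin of the Schwann cell lineage, rose by 4.53 ± 0.30 from E13 to E17 (adjusted p 6.63e-13). Jup, plakoglobin, rose by 2.61 ± 0.21 from P1 (19.97 ± 5.16 CPM) to P60 (122.4 ± 13.51 CPM, adjusted p 2.07e-11). Over P1 to P60 3 of the 11 were called, all higher, beside 20.3% of all genes called higher and 35.5% in either direction. Endothelial and perineurial marker sums, given above for Tjp1, also rose over this span, and the part of those cells in these changes was not tested.

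Of 14 tight junction and polarity genes 13 were tested. From E13 to E17 4 were called higher and 5 lower, beside 14.2% and 21.2% of all genes, and from E17 to P1 2 were called, both higher, beside 6.31%. Jam3, an adhesion molecule that is found at incisures and paranodes, rose from 77.9 ± 16.7 to 390.2 ± 16.5 CPM between E13 and E17 (2.33 ± 0.11, adjusted p 1.02e-15) and was at 331.4 to 474 CPM at all later stages. Mpp5, which encodes the polarity scaffold PALS1, rose by 1.13 ± 0.26 over the same step (edgeR adjusted p 0.000438), to 37.9 ± 1.96 CPM, and was at 82.1 ± 4.33 CPM at P60. Cgnl1, which encodes the cingulin-like protein paracingulin, was not called in any of the 8 comparisons and had means of 60.02 to 130.6 CPM over the stages. From P1 to P60 7 of the 13 were called higher and 1 lower, beside 20.3% and 15.2%, with Mpdz, a scaffold with many PDZ domains, higher by 1.67 ± 0.21 (adjusted p 1.23e-07) and its relative Patj by 2.00 ± 0.12 (adjusted p 1.46e-13). The endothelial and perineurial marker sums given for Tjp1 were higher over the same span without overlap, and their part in these counts was not tested.

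Of 32 other claudins 10 passed the filter. From P1 to P60 7 of the 10 were called, all higher, beside 20.3% of all genes, and from E17 to P1 2, both higher, beside 6.31%. Cldn5, the claudin of blood vessels, went from 5.64 ± 1.12 to 83.1 ± 18.9 CPM between P1 and P60 (3.88 ± 0.29, edgeR adjusted p 6.26e-12) and Cldn1, that of the perineurium, from 58.5 ± 11.7 to 161.7 ± 76.2 CPM (1.47 ± 0.39, adjusted p 0.00208). Both are among the endothelial and perineurial markers whose sums are given above. Like Cldn19, Cldn12 was called higher from E17 to P1, with a mean of 32.2 ± 1.76 CPM at E17, 64.7 ± 7.77 at P1, 97.4 ± 6.77 at P14 and 48.6 ± 4.49 at P60. The rise of Cldn12 to P1 was 1.01 ± 0.13 (adjusted p 9.07e-07). Cldn11 fell from 63.5 ± 1.74 to 15.1 ± 0.516 CPM between E13 and E17 (-2.07 ± 0.14, adjusted p 1.65e-12) and by 1.79 ± 0.15 from P14 to P60 (adjusted p 4.61e-10). Cldn22 stayed under 0.2 CPM in all libraries up to P5 and stood at 8.127 to 21.16 CPM at P60.

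Of 18 other connexins 10 passed the filter. Between E13 and E17 6 of these 10 fell, beside 21.2% of all genes, and 2 rose, beside 14.2%. Gja1, which encodes Cx43 of fibroblasts and many other cells, went from 178.7 ± 62.1 to 44.2 ± 1.49 CPM (-2.02 ± 0.23, edgeR adjusted p 1.59e-08), Gjb2 (Cx26) from 42.9 ± 6.81 to 2.42 ± 0.47 CPM and Gjb6 (Cx30) from 27.8 ± 8.17 to 0.634 ± 0.13 CPM. Among the connexins called with a stage mean of at least 10 CPM the fitted change was largest for Gjd2, the neuronal Cx36, with 8.561 to 18 CPM at E13 and 0 to 0.7371 CPM at E17 (-5.58 ± 0.63, adjusted p 1.5e-07). Over this step 5 of 5 tested sensory neuron markers and 5 of 5 macrophage markers were called lower. So were 4 of 7 epidermal, 3 of 4 skeletal muscle and 3 of 5 oligodendrocyte markers tested. Called higher were 5 of 5 Schwann cell, 4 of 5 fibroblast, 3 of 8 endothelial, 2 of 5 perineurial and 1 of 4 skeletal muscle markers. The summed fibroblast markers stood at 1519 to 2590 CPM at E13 and 16120 to 18070 CPM at E17. The part of other cells in the connexin levels was not tested. Gjc1 (Cx45) was highest at E17 (86.5 ± 6.59 CPM) and fell by 1.92 ± 0.14 from P1 to P60 (adjusted p 6.52e-12).

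Gangliosides are the axonal ligands of Mag, and 6 enzymes that make them were tested. Of these 3 were called lower from E13 to E17, beside 21.2% of all genes, and 2 higher and 1 lower from P1 to P60, beside 20.3% and 15.2%. St8sia1, which makes the b-series gangliosides, went from 46.1 ± 12.03 CPM at E13 to 1.03 ± 0.26 at E17 (-5.48 ± 0.39, edgeR adjusted p 3.37e-12). B4galnt1, needed for all complex gangliosides, was at 24.3 ± 10.9 CPM at E13, between 1.61 and 3.64 CPM on average from E17 to P24, and at 25.87 to 40.54 CPM in the libraries of P60. Its rise from P24 to P60 was 3.19 ± 0.36 (adjusted p 3.26e-07), over the step at which Mag was 0.85 ± 0.24 lower (adjusted p 0.0132), short of 2-fold. The sialyltransferases St3gal2 and St3gal3 had means of 48.2 to 93.58 CPM and 23.6 to 89.95 CPM over the stages, and St3gal3 rose by 1.35 ± 0.21 from P1 to P60 (adjusted p 2.56e-06). St3gal5, which starts the pathway, fell by 1.49 ± 0.10 from P1 to P60 (adjusted p 9.53e-13). Gangliosides of axons are made in the neuron, whose cell body lies outside the nerve. At E13 the summed level of 6 sensory neuron markers was 183.8 to 265.9 CPM, against at most 20.02 CPM in any later library. It was 7.901 to 11.12 CPM at P24 and 16.37 to 20.02 CPM at P60, higher without overlap over the step at which B4galnt1 rose. Most of the P60 sum was Prph (mean 12.53 CPM), while Scn10a, Scn11a and Pou4f1 had P60 means of 0.01827 to 0.1797 CPM. Over this step 2 of 5 tested markers were called, both higher, beside 5.96% of all genes called in either direction. The part of neurons in the levels of these enzymes was not tested.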

How the data were processed

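The deposited values are raw counts of reads, 1 per gene and library, with no normalization by the authors. Stranded TruSeq poly-A libraries were run single-end (HiSeq4000), trimmed, aligned by the authors with STAR 2.6.1c and counted with featureCounts. The submitters' processing notes name GRCm38.p5 as the build. Strand and multi-mapping settings are not given in the sources used here, so overlapping and near-identical genes are uncertain. Of 41605 identifiers, 41519 (99.79%) matched GENCODE M21 (GRCm38), which gave symbols, coordinates and exon lengths.

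Counts were filtered with filterByExpr by stage, TMM-scaled and fitted with stage as the only term on all 28 libraries (edgeR 4.0.16, R 4.3.3, glmQLFit robust, glmQLFTest). An SE is the log2 fold change over the square root of F. Log2 CPM for ratios and correlations used a prior count of 2, and ratios were tested by two-sided exact permutation. At these totals counting error matters most for Gjb1 and Ncmap at E13 and E17, for Cldn19 at E13 and for Cdh1 at E17. The alternatives were other scalings and filters, limma-voom (limma 3.58.1), DESeq2 1.42.0, a replicate block, fits on fewer stages, no fold minimum and each library left out. A slope on transcript GC content as a covariate, and omission of 3 libraries with steep slopes, were added after the data were seen. In simulated counts for P1 against E17 (17118 genes), 95 of 100 genes changed 4-fold were called, 37 of 100 changed 2-fold, and 2 unchanged genes. There only the changed genes differed between stages, only at P1, and none of them had a very low mean. The figures therefore do not cover steps at which many genes change, or genes as low as Gjb1 and Ncmap at E17.

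The members and the partner and marker lists were chosen with earlier results of these data known. Named partners were the 4 with the highest stage mean of a list and the called gene with the largest change (at least 10 CPM), and for each member the 3 genes of highest r among those with a stage mean of at least 10 CPM. The libraries are taken as separate samples as the study describes. A few genes are not reported here and were left out of the lists.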

Additional observations from a re-analysis of the deposited data

Results flagged for a closer look

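At E17, replicate 2 was far below the other 3 libraries for both Gjb1 (0 CPM, against 0.272 to 0.330) and Ncmap (0.2641 CPM, against 0.776 to 0.935). On the scale of log2 CPM with a prior count of 2, the gap to the nearest library over the whole range was 0.903 for Gjb1 and 0.842 for Ncmap, above the critical value of 0.829. These are 0 and 5 counts against 5 to 7 and 13 to 20. Of 56 combinations of a member and a stage these 2 stood out, and chance gives about 1 in 20. Both genes were among those called at P1 against E17 without that library.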

How the results depend on the processing

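No member call changed direction in any setting, and 7 members were called at P1 against E17 in all settings. With no fold minimum the number called was 7 for E17 against E13 (beside 62.2% of all genes), 7 for P1 against E17 (29.5%), 5 for P5 against P1 (17.6%), 3 for P14 against P5 (29.6%), 1 for P24 against P14 (5.45%), 2 for P60 against P24 (16.1%), 6 for P60 against P1 (61.1%) and 5 for P60 against P14 (29.9%). Scaling by library size alone gave 0 for P60 against P24, as did leaving out P24 replicate 2, and moved the median log2 change of all genes by -0.25 (E17 against E13) to 0.17 (P60 against P14). With each library left out in turn, 5 to 6 members were called at E17 against E13, 2 to 3 at P5 against P1, 0 to 1 at P60 against P24 and 3 to 4 at P60 against P1.

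Of 64 changes, 14 that were not called changed sign in some setting. With library size only these were Tjp1 at P1 against E17 (-0.053), Gjc3 (-0.01) and Tjp1 (-0.13) at P5 against P1, Cnp at P14 against P5 (-0.11), Gjb1 (0.043) and Ncmap (0.023) at P60 against P24, Cnp at P60 against P1 (-0.18), and Gjb1 (0.13) and Cdh1 (0.066) at P60 against P14. With limma-voom they were Gjb1 at P24 against P14 (-0.018) and Cnp at P60 against P1 (-0.087), with DESeq2 size factors and with its Wald test Cldn19 at P60 against P1 (0.021), and without a filter Cnp at P60 against P1 (-0.063) and Gjb1 at E17 against E13 (0.011). The GC covariate gave 0.024 for Gjb1 at E17 against E13, and omission of the 3 GC libraries gave -0.079 for Cnp at P60 against P1. With single libraries left out the ranges that spanned 0 were Gjb1 at E17 against E13 (-0.37 to 0.38), at P24 against P14 (-0.033 to 0.087) and at P60 against P14 (-0.11 to 0.02), Cdh1 at P14 against P5 (-0.058 to 0.029) and P24 against P14 (-0.003 to 0.10), and Cnp (-0.078 to 0.11) and Cldn19 (-0.088 to 0.057) at P60 against P1. The cause was not tested.

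Deviations of libraries with the same replicate number in different stages had r from -0.20 to 0.57 (median 0.08, with 33 of 84 pairs over 0.1), against a median of -0.04 and 29 of 252 over 0.1 for different numbers. The labels do not say what the numbers stand for, and they were not taken as a pairing in the main fit. Whether libraries of the same number share a factor was not tested. With the number as a block 6 members were called at E17 against E13, 7 at P1 against E17, 2 at P5 against P1, 0 at P14 against P5 and P24 against P14, 1 at P60 against P24, 4 at P60 against P1 and 2 at P60 against P14, and no member's call changed. In the fit on only E13 and E17 Gjb1 did not pass the filter. With library size alone the highest stage was P5 for Cnp and Cdh1, P60 for Gjb1 and P1 for Gjc3.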

Other observations

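In 6 of 7 stages (not E17) the library with the most Tjp1 of the 4 was also the library with the least Mag. Over the 28 libraries, the deviations from the stage mean had r = -0.596 between Tjp1 and Mag and -0.820 between Tjp1 and Cnp, against 0.944 between Gjb1 and Ncmap and 0.725 between Gjc3 and Tjp1. The 10 pairs among Mag, Cnp, Gjb1, Cldn19 and Ncmap had r from 0.557 (Mag with Ncmap) to 0.944, including 0.939 for Mag with Cldn19, 0.901 for Mag with Cnp and 0.820 for Cnp with Cldn19. Cdh1 had -0.071 with Mag, -0.041 with Cnp, 0.119 with Cldn19, 0.483 with Gjb1 and 0.485 with Ncmap. Gjc3 had -0.119 with Mag, -0.409 with Cnp, -0.193 with Gjb1, 0.065 with Cldn19 and -0.054 with Ncmap. Without E13 the value for Tjp1 and Mag was -0.683. The highest and lowest Tjp1 deviations were both at E13 (0.906 in replicate 1 and -1.124 in replicate 4). At the later stages they ran from -0.155 to 0.157. The values of the other pairs, among them Tjp1 with Cnp and Gjc3 with Tjp1, include E13. How far they rest on that stage was not tested.

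The slope of each library's deviations on transcript GC content, over 10030 protein-coding genes, ran from -0.933 (E13 replicate 1) to 0.726 (E13 replicate 4) log2 units per 10 percentage points, with -0.428 in P1 replicate 1. The transcripts of Mag, Gjb1, Ncmap, Cnp and Cldn19 had a GC content of 53.8% to 57.6%, those of Cdh1 50.7%, Tjp1 46.8% and Gjc3 43.3%. The members' deviations had r with this slope of 0.947 for Cnp, 0.866 for Mag, 0.730 for Cldn19, -0.862 for Tjp1 and -0.570 for Gjc3, and without E13 of 0.769, 0.848, 0.682, -0.677 and -0.585. For Gjb1 r was 0.654 (0.313 without E13), for Ncmap 0.555 (0.378) and for Cdh1 -0.178 (-0.027). These correlations are descriptions over libraries that share their scaling.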
